A study of Caenorhabditis elegans with 12 samples.

Results

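Whole *C. elegans* adults were examined for the transcripts of 10 enzymes that desaturate or lengthen fatty acids. They were 7 desaturase genes, *fat-1* to *fat-7*, and 3 elongase genes, *elo-1*, *elo-2* and *elo-5*. The 10 genes were taken by name and not by a threshold on their values, although earlier results of these data were known. Estimated counts covered 22059 genes, and all 10 were among the 14576 genes that passed a filter on low counts and were tested. Animals were synchronized and grown at 20 °C on ample OP50, the *E. coli* strain used as worm food. The 4 conditions, with 3 biological replicates each, were *fog-2(lf)* on the sixth day of adulthood, *fog-2(lf)* on the first day, wild type on the sixth day and wild type on the first day. The *fog-2(lf)* strain, JK574, carries the *q71* allele in the N2 background, and the wild type is N2, the laboratory reference strain. *fog-2* acts in the germline of XX animals and is needed there to make sperm, so *fog-2(lf)* XX adults make oocytes but no sperm of their own, whereas N2 XX adults are hermaphrodites that make a limited number of sperm and then oocytes. By the study's methods, first-day adults did not yet hold embryos and sixth-day wild type had used up its sperm, so first-day wild type was the only condition with sperm of its own. The labels and methods do not say whether male siblings, which a *fog-2* strain needs for its propagation, were removed. The design asks how each transcript differed with age in either genotype, with genotype on either day, and whether the age difference itself depended on genotype.

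*C. elegans* builds its polyunsaturated fatty acids from scratch, which most animals cannot do. Saturated chains made by fatty acid synthase receive their first double bond from delta-9 desaturases, FAT-5 acting mainly on palmitoyl-CoA and FAT-6 and FAT-7 on stearoyl-CoA. FAT-2 then adds a further double bond to oleic acid, and FAT-1, FAT-3 and FAT-4 add more, with ELO-1 and ELO-2 lengthening the chains between these steps, so that arachidonic and eicosapentaenoic acids are formed. ELO-5 belongs to a separate branch that lengthens iso-branched chains, which the worm needs for growth. The intestine is the main site of this work, and its lipids supply the oocytes.

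Estimated counts summed to between 21162593 and 38775999 per library. The targeted gene followed the labels: *fog-2* was at 3.20 to 4.86 CPM in the 6 *fog-2(lf)* libraries and at 44.5 to 58.5 in the 6 wild-type libraries. CPM (gene counts scaled to library size by edgeR's trimmed mean of M-values, TMM) compare 1 gene between libraries. TPM, which are also divided by transcript length, are used where genes are compared with each other. Replicate 2 of first-day wild type stood apart, with Spearman correlations of 0.968 and 0.965 to its fellow replicates, whereas every other pair of replicates in the series reached 0.985 to 0.991. The markers of the labelled tissues were present. Summed over 8 of 8 intestinal markers, TPM ran from 143 to 173 in sixth-day *fog-2(lf)*, from 258 to 345 in first-day *fog-2(lf)*, from 153 to 250 in sixth-day wild type and from 488 to 555 in first-day wild type. The sum over 10 of 10 germline markers was between 2026 and 2934 TPM in all 12 libraries, and the sums over sperm (9 of 9) and early embryo markers (6 of 8 tested) were at most 17.3 and 8.13 TPM. The 17.3 TPM of the sperm markers came from 1 library of first-day wild type, a group with a median of 3.30 and a lowest value of 2.53. In the other conditions the sperm markers summed to 2.21 to 5.61 TPM. The 6 hypodermis markers summed to 41.3 to 54.1 TPM in sixth-day wild type and 25.5 to 36.1 in first-day wild type. In *fog-2(lf)* they summed to 30.8 to 38.2 TPM on the sixth day and 30.05 to 36.2 on the first. The marker sums are in TPM, which are not TMM-scaled. The TMM factors were 1.14 to 1.17 in sixth-day and 0.821 to 0.888 in first-day wild type, so the separation of these hypodermis ranges depends on the scaling. Of the early embryo markers, *med-1* was at 0 in first-day wild type. The 5 body wall muscle markers summed to 39.7 to 42.6 TPM in sixth-day *fog-2(lf)*, 207 to 363 in first-day *fog-2(lf)*, 62.1 to 86.4 in sixth-day wild type and 74.8 to 224 in first-day wild type. In whole animals, fewer cells of a type and less RNA per cell cannot be told apart, and the part of these marker differences in the results below was not tested.

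A log2 fold change was called where edgeR's quasi-likelihood test gave an adjusted p (Benjamini-Hochberg, 14576 genes) under 0.1. With age in *fog-2(lf)*, 3 of the 10 genes rose, 3 fell and 4 were not called, where 39.2% of all tested genes were called, 18.0% as increases and 21.1% as decreases. With age in wild type, 1 rose, 7 fell and 2 were not called, where 48.8% of all tested genes were called, 23.4% as increases and 25.4% as decreases. In *fog-2(lf)* against wild type, 1 gene was higher, 5 were lower and 4 were not called on the first day, with 18.3% of all tested genes called (7.72% higher and 10.6% lower). On the sixth day 4 were higher, 1 was lower and 5 were not called, with 20.3% of all tested genes called (9.83% higher and 10.4% lower). The age difference depended on genotype, as an interaction term, for 8 of the 10 genes, 7 with a positive and 1 with a negative term, with 15.3% of all tested genes called (7.36% positive and 7.92% negative). Groups of libraries did not overlap for 6 of the 10 genes with age in *fog-2(lf)*, where this held for 50.5% of all tested genes, for 5 with age in wild type (48.5%), for 6 between genotypes on the first day (26.3%) and for 8 on the sixth (43.9%). The median log2 fold change of the 10 genes was 0.18 with age in *fog-2(lf)* and −0.96 with age in wild type, and −0.90 on the first day and 0.55 on the sixth day for *fog-2(lf)* against wild type. Over all tested genes the same medians were −0.03, 0.00, −0.01 and −0.02. The median interaction was 1.54 for the 10 genes and 0.02 for all genes. The wild-type age comparison, the first-day genotype comparison and the interaction share the 3 first-day wild-type libraries, so their values are not independent of each other.

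The scaling mattered to these values. With libraries scaled by their totals alone, the median over all genes, on the log2 scale, moved by 0.42 with age in wild type, by 0.13 with age in *fog-2(lf)*, by 0.14 for genotype on the first day, by −0.14 on the sixth day and by −0.29 for the interaction. The share of all calls that were increases was then 81.0% against 48.0% in the TMM fit for age in wild type, 62.1% against 46.0% for age in *fog-2(lf)*, 70.4% against 42.2% for first-day genotype, 16.3% against 48.5% for genotype on the sixth day and 12.9% against 48.2% for the interaction. The called changes of the 10 genes given here are relative to the median gene, and none of them changed direction under any scaling tried.

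**Figure D1:**
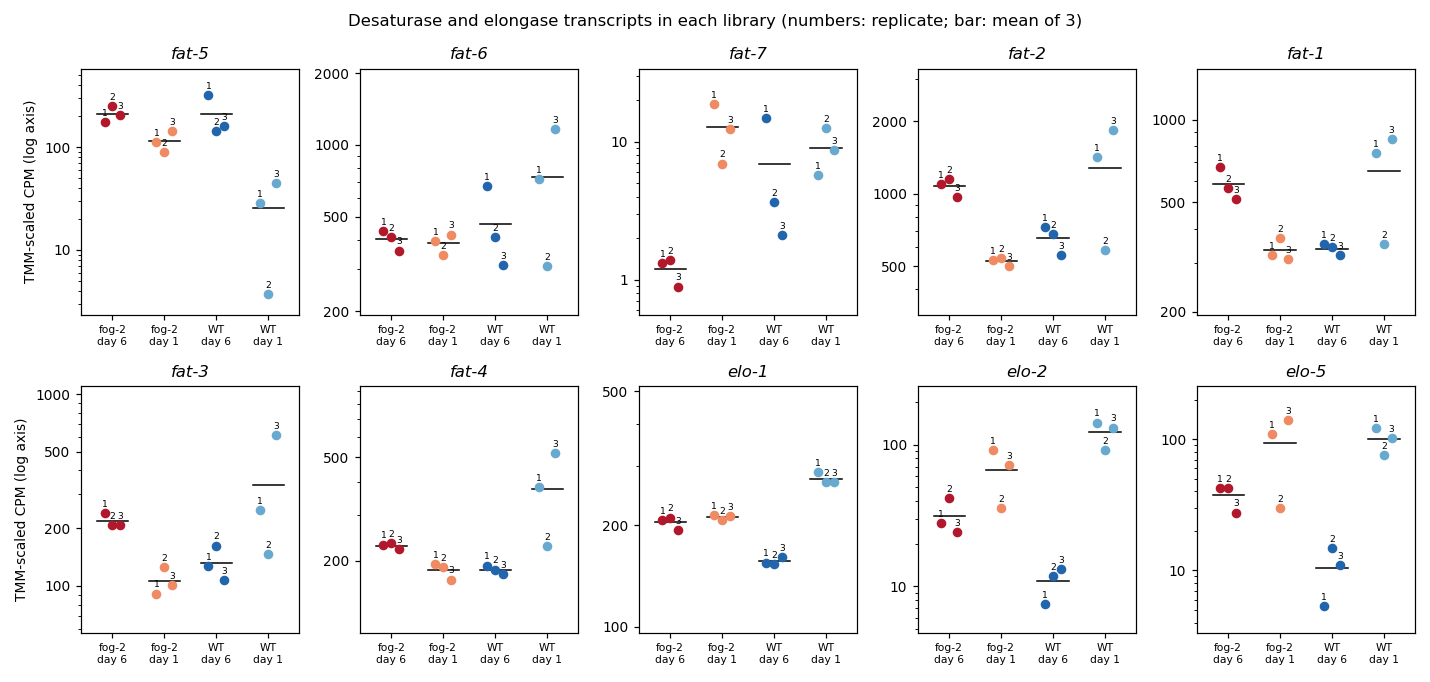
Level of each of the 10 genes in every library, as TMM-scaled CPM on a log axis, with 1 panel per gene, the 4 conditions along the horizontal axis, the replicate number above each point and a bar at the mean of 3 replicates. *fat-5* sits at 3.74 to 44.6 CPM in first-day wild type and above 90 CPM in the other 9 libraries, and *fat-7* is at 0.892 to 1.39 CPM in sixth-day *fog-2(lf)*.

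By TPM, *fat-2* was the highest of the 10 genes in all 12 libraries and *fat-7* the lowest in 10 of them. In sixth-day *fog-2(lf)* the order of mean TPM was *fat-2* (1150 ± 94.3, SD, n = 3), *fat-1* (397 ± 34.3), *fat-6* (337 ± 17.7), *fat-3* (269 ± 26.9), *fat-4* (206 ± 2.61), *elo-1* (199 ± 8.12), *fat-5* (78.2 ± 15.7), *elo-5* (42.1 ± 8.39), *elo-2* (30.9 ± 9.40) and *fat-7* (1.06 ± 0.211). Of the neighbours in that order, *fat-4* and *elo-1* overlapped, as did *elo-5* and *elo-2*, and the others did not. In first-day *fog-2(lf)* the order was *fat-2* (448 ± 46.5), *fat-6* (311 ± 16.9), *fat-1* (221 ± 31.8), *elo-1* (192 ± 6.31), *fat-4* (145 ± 18.6), *fat-3* (105 ± 20.8), *elo-5* (98.9 ± 58.0), *elo-2* (62.2 ± 25.2), *fat-5* (40.9 ± 7.84) and *fat-7* (10.8 ± 4.78). Only *fat-2* and *fat-6*, *fat-6* and *fat-1*, *elo-1* and *fat-4*, and *fat-5* and *fat-7* were separate neighbours there. In sixth-day wild type the order was *fat-2* (690 ± 86.6), *fat-6* (454 ± 163), *fat-1* (272 ± 4.05), *fat-4* (190 ± 8.39), *elo-1* (181 ± 11.2), *fat-3* (165 ± 38.5), *fat-5* (89.8 ± 39.4), *elo-5* (13.9 ± 6.54), *elo-2* (12.6 ± 3.85) and *fat-7* (6.99 ± 6.83). Here *fat-6* and *fat-1*, *fat-1* and *fat-4*, and *fat-5* and *elo-5* did not overlap, and the other neighbours did. In first-day wild type the order was *fat-2* (940 ± 486), *fat-6* (536 ± 304), *fat-1* (391 ± 149), *fat-3* (292 ± 209), *fat-4* (268 ± 98.5), *elo-1* (238 ± 7.74), *elo-2* (107 ± 19.9), *elo-5* (99.6 ± 19.9), *fat-5* (8.27 ± 6.59) and *fat-7* (7.18 ± 3.01). There the neighbours were separate only between *elo-1* and *elo-2* and between *elo-5* and *fat-5*. Replicate 2 of first-day wild type was the lowest of its group for every desaturase except *fat-7*, for which it was the highest.

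Among the delta-9 desaturases, *fat-5*, the palmitoyl-CoA desaturase, was low in first-day wild type alone. It stood at 176, 249 and 206 CPM in sixth-day *fog-2(lf)* replicates 1, 2 and 3, at 113, 90.1 and 144 in first-day *fog-2(lf)*, at 322, 143 and 160 in sixth-day wild type and at 28.5, 3.74 and 44.6 in first-day wild type. All 9 other libraries were above the highest first-day wild-type library. *fat-5* rose with age in wild type by 3.04 on the log2 scale (SE 0.64, adjusted p = 0.0033) and on the first day was higher in *fog-2(lf)* by 2.19 (SE 0.62, adjusted p = 0.047). These were the only called increases among the 10 genes in those 2 comparisons. In *fog-2(lf)* the age difference was 0.86 (SE 0.59, adjusted p = 0.3) and was not called, although the 3 sixth-day libraries were all above the 3 first-day libraries. Fitted on the *fog-2(lf)* libraries alone, this difference was called (0.87, adjusted p = 0.0062). On the sixth day *fog-2(lf)* and wild type overlapped, with a log2 fold change of 0.02 (SE 0.59, adjusted p = 0.99). The interaction was −2.17 (SE 0.85, adjusted p = 0.13). Replicate 2 of first-day wild type, at 3.74 CPM, weighed on these values. Without it the log2 fold changes were 2.51 with age in wild type (adjusted p = 0.0005) and 1.67 for genotype on the first day (adjusted p = 0.011), the age difference in *fog-2(lf)* was called (0.86, adjusted p = 0.044), and so was the interaction (−1.65, adjusted p = 0.039). Without first-day wild type replicate 3 the interaction was also called (−2.82, adjusted p = 0.061) and the age difference in wild type was 3.69, and without first-day *fog-2(lf)* replicate 3 the first-day genotype call was lost (1.999, adjusted p = 0.13).

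*fat-6*, a stearoyl-CoA desaturase that makes oleic acid, was called in none of the 5 comparisons. Its CPM were 436, 411 and 360 in sixth-day *fog-2(lf)*, 396, 344 and 421 in first-day *fog-2(lf)*, 669, 411 and 313 in sixth-day wild type and 721, 310 and 1162 in first-day wild type. The *fog-2(lf)* libraries lay within 344 to 436 CPM on both days, while the wild-type libraries spread more than the distance between any of the group means. The log2 fold changes were 0.06 with age in *fog-2(lf)* (SE 0.38, adjusted p = 0.93), −0.66 with age in wild type (SE 0.38, adjusted p = 0.19), −0.92 for genotype on the first day (SE 0.38, adjusted p = 0.14) and −0.21 on the sixth day (SE 0.38, adjusted p = 0.76), with an interaction of 0.71 (SE 0.54, adjusted p = 0.43). Without first-day wild type replicate 2, *fat-6* was called lower with age in wild type (−1.02, adjusted p = 0.012) and lower in *fog-2(lf)* on the first day (−1.28, adjusted p = 0.01), and its interaction was called (1.08, adjusted p = 0.076). Without sixth-day wild type replicate 1 it was called lower with age in wild type (−1.01, adjusted p = 0.079).

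*fat-7*, the other stearoyl-CoA desaturase and a near copy of *fat-6*, was a low transcript, lowest in sixth-day *fog-2(lf)*. It was at 1.32, 1.39 and 0.892 CPM there, against 18.8, 6.93 and 12.3 in first-day *fog-2(lf)*, and at 14.7, 3.67 and 2.11 in sixth-day wild type against 5.76, 12.6 and 8.63 in first-day wild type. The sixth-day *fog-2(lf)* libraries were below all 9 others. *fat-7* fell with age in *fog-2(lf)* by 3.40 on the log2 scale (SE 0.68, adjusted p = 0.0035) and on the sixth day was lower in *fog-2(lf)* (−2.51, SE 0.66, adjusted p = 0.034). With age in wild type the difference was −0.40 (SE 0.61, adjusted p = 0.63) and the groups overlapped, and on the first day the genotypes differed by 0.49 (SE 0.61, adjusted p = 0.63). The interaction was −3.01 (SE 0.90, adjusted p = 0.063). Replicate 1 of sixth-day wild type, the highest of its group, decided some of these: without it *fat-7* was called lower with age in wild type (−1.64, adjusted p = 0.023), and the calls for genotype on the sixth day (−1.27, adjusted p = 0.13) and for the interaction (−1.77, adjusted p = 0.12) were lost. The sixth-day genotype call was also lost without sixth-day *fog-2(lf)* replicate 1 (−2.58, adjusted p = 0.11), and the interaction call was lost without any of 7 of the 12 libraries, namely the 3 of sixth-day *fog-2(lf)*, first-day *fog-2(lf)* replicates 1 and 3, and replicate 1 of each wild-type day, at adjusted p from 0.11 to 0.13. Reads that match both *fat-6* and *fat-7* are divided between them by the estimation, so the low values of *fat-7* are the less certain of the pair. *fat-7* rested on 36 to 583 estimated counts per library and *fat-6* on 9189 to 21652.

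Per length, *fat-6* made up most of the delta-9 desaturase transcripts in every library, with the lowest share of *fat-5* in first-day wild type and the lowest of *fat-7* in sixth-day *fog-2(lf)*. *fat-5* was 15.1, 21.0 and 20.1% of the summed TPM of the 3 genes in sixth-day *fog-2(lf)* (mean 18.7% ± 3.21, SD, n = 3) and 10.7, 10.2 and 12.8% in first-day *fog-2(lf)* (11.2% ± 1.38). It was 17.2, 13.2 and 18.3% in sixth-day wild type (16.2% ± 2.68) and 1.72, 0.509 and 1.66% in first-day wild type (1.29% ± 0.681). First-day wild type was therefore below the other 9 libraries, with a *fat-6* to *fat-5* ratio of 56.7 to 187 against 3.75 to 8.64. The mean share of *fat-6* was 81.0% ± 3.20 in sixth-day *fog-2(lf)*, 85.8% ± 1.83 in first-day *fog-2(lf)*, 82.7% ± 2.86 in sixth-day wild type and 96.8% ± 1.24 in first-day wild type. *fat-7* held 0.254% ± 0.0391, 2.93% ± 1.23, 1.09% ± 0.695 and 1.91% ± 1.92 in the same 4 conditions, and the 3 sixth-day *fog-2(lf)* libraries were below all 9 others. The summed TPM of the 3 genes was 416 ± 23.2 in sixth-day *fog-2(lf)*, 363 ± 26.9 in first-day *fog-2(lf)*, 551 ± 207 in sixth-day wild type and 551 ± 308 in first-day wild type. The sum was 397.5 to 442 TPM in the 3 sixth-day *fog-2(lf)* libraries and 394 to 786 in the 3 of sixth-day wild type. Both ranges were above the 333 to 386 TPM of first-day *fog-2(lf)*, and first-day wild type, at 252 to 868, overlapped all 3. These TPM are not TMM-scaled, and with the CPM of the 3 genes added up instead, both sixth-day groups overlapped first-day *fog-2(lf)*. No test was made on the shares, since an exact permutation of 3 against 3 libraries cannot give a p below 0.1. The share does not depend on the scaling of libraries, as it is formed within each of them. It does depend on transcript length, and the *fat-5* model used has 2335 bases against the 1815 annotated, so the size of its share is uncertain.

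**Figure D2:**
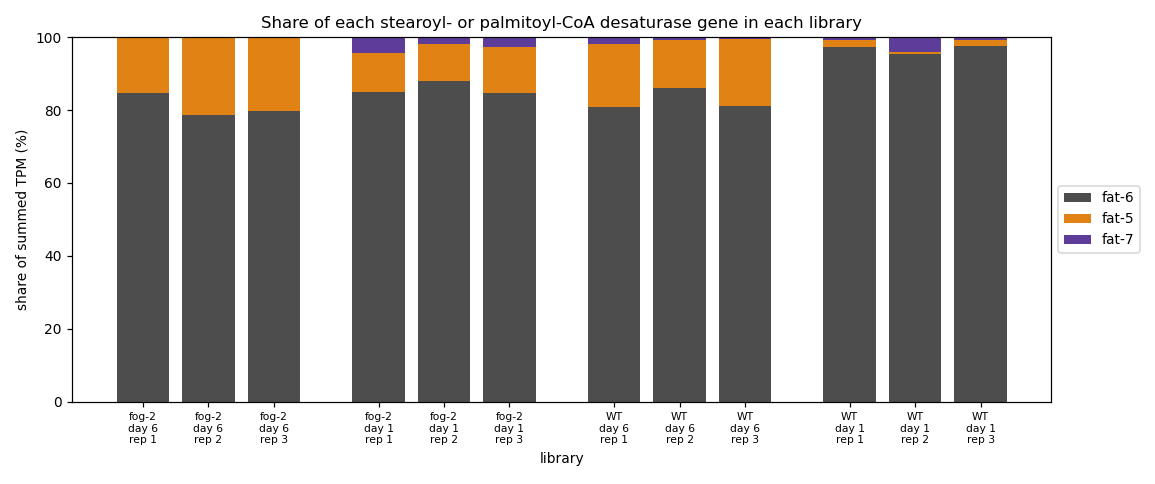
Share of *fat-6*, *fat-5* and *fat-7* in the summed TPM of the 3 delta-9 desaturases, in percent, with 1 stacked bar per library and the 4 conditions along the horizontal axis. The *fat-5* part is 0.509 to 1.72% in first-day wild type and 10.2 to 21.0% in all other libraries.

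All 4 desaturases that act on unsaturated chains fell with age in wild type, and 3 of them, *fat-1*, *fat-2* and *fat-3*, rose with age in *fog-2(lf)*. *fat-2*, the delta-12 desaturase that turns oleic into linoleic acid, was at 1099, 1148 and 973 CPM in sixth-day *fog-2(lf)* against 531, 542 and 502 in first-day *fog-2(lf)*. In wild type it was at 728, 683 and 554 CPM on the sixth day against 1423, 583 and 1844 on the first day. The *fog-2(lf)* ages were separate, and the wild-type ages overlapped only through replicate 2 of the first day. *fat-2* rose with age in *fog-2(lf)* by 1.03 (SE 0.30, adjusted p = 0.024), fell with age in wild type by 0.97 (SE 0.30, adjusted p = 0.024), and was lower in *fog-2(lf)* on the first day (−1.29, SE 0.30, adjusted p = 0.025). On the sixth day all 3 *fog-2(lf)* libraries were above all 3 wild-type libraries, but the difference was not called (0.71, SE 0.30, adjusted p = 0.14). It was called with DESeq2 (adjusted p = 0.065), on the 6 sixth-day libraries alone (adjusted p = 0.0079) and without first-day wild type replicate 2 or 3 (adjusted p = 0.0057 and 0.087). The interaction was 2.002 (SE 0.43, adjusted p = 0.025).

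*fat-1*, the omega-3 desaturase, followed *fat-2*, its neighbour on the chromosome. Its CPM were 675, 565 and 516 in sixth-day *fog-2(lf)* against 323, 371 and 312 in first-day *fog-2(lf)*, and 354, 343 and 322 in sixth-day wild type against 754, 352 and 854 in first-day wild type. Again the *fog-2(lf)* ages were apart and the wild-type ages touched only at replicate 2 of the first day. *fat-1* rose with age in *fog-2(lf)* by 0.80 (SE 0.25, adjusted p = 0.03) and fell with age in wild type by 0.94 (SE 0.25, adjusted p = 0.011). It was lower in *fog-2(lf)* on the first day (−0.96, SE 0.25, adjusted p = 0.034) and higher on the sixth (0.78, SE 0.25, adjusted p = 0.061). In the main fit *fat-1* alone of these 4 genes was called on both days. For all 4, however, every sixth-day *fog-2(lf)* library was above every sixth-day wild-type library. Fitted on the sixth-day libraries alone, *fat-2*, *fat-3* and *fat-4* were also called (adjusted p = 0.0079, 0.014 and 0.01). Without first-day wild type replicate 2, all 4 were called on both days. With limma on log2(TPM + 0.5) the sixth-day call of *fat-1* was lost (0.54, adjusted p = 0.14). The interaction of *fat-1* was 1.75 (SE 0.35, adjusted p = 0.023). The call with age in *fog-2(lf)* was lost without sixth-day *fog-2(lf)* replicate 1 (0.69) or first-day *fog-2(lf)* replicate 3 (0.75), both at an adjusted p of 0.1. The first-day genotype call was lost without first-day *fog-2(lf)* replicate 3 (−0.91, adjusted p = 0.12), and the sixth-day call without any of 5 libraries, sixth-day *fog-2(lf)* replicate 1 or 2 or any of sixth-day wild type (0.67 to 0.82, adjusted p from 0.13 to 0.2).

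*fat-3*, the delta-6 desaturase at the entry of the long-chain branch, was at 241, 207 and 208 CPM in sixth-day *fog-2(lf)* against 91.3, 125 and 101 in first-day *fog-2(lf)*, and at 127, 162 and 108 in sixth-day wild type against 250, 147 and 609 in first-day wild type. Its first-day wild-type values were the most scattered of the 4 genes. *fat-3* rose with age in *fog-2(lf)* by 1.05 (SE 0.39, adjusted p = 0.062), fell with age in wild type by 1.34 (SE 0.39, adjusted p = 0.018) and was lower in *fog-2(lf)* on the first day (−1.66, SE 0.39, adjusted p = 0.026). On the sixth day the difference was 0.72 (SE 0.39, adjusted p = 0.24), with all 3 *fog-2(lf)* libraries above all 3 wild-type libraries. It was called on the sixth-day libraries alone (adjusted p = 0.014) and without first-day wild type replicate 2 or 3 (adjusted p = 0.083 and 0.045). The interaction was 2.38 (SE 0.55, adjusted p = 0.032). Much of the size came from first-day wild type replicate 3. Without it the wild-type age difference was −0.59, that for first-day genotype −0.92 and the interaction 1.64, all still called. The rise with age in *fog-2(lf)* was not called without any of 5 of the *fog-2(lf)* libraries, all but replicate 2 of the first day (0.95 to 1.08, adjusted p from 0.11 to 0.17).

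*fat-4*, the delta-5 desaturase that completes arachidonic and eicosapentaenoic acid, was at 231, 234 and 222 CPM in sixth-day *fog-2(lf)*, 195, 190 and 170 in first-day *fog-2(lf)*, 192, 185 and 177 in sixth-day wild type and 384, 227 and 519 in first-day wild type. In CPM, even the low first-day wild type replicate 2 was above sixth-day wild type and first-day *fog-2(lf)*. In TPM that library, at 169, was above first-day *fog-2(lf)* (123.7 to 157.5) but below sixth-day wild type (185 to 200). *fat-4* fell with age in wild type by 1.03 (SE 0.21, adjusted p = 0.0031) and was lower in *fog-2(lf)* on the first day (−1.03, SE 0.21, adjusted p = 0.017), with an interaction of 1.34 (SE 0.30, adjusted p = 0.029). The increase with age in *fog-2(lf)* (0.31, SE 0.21, adjusted p = 0.3) and the sixth-day genotype difference (0.31, SE 0.21, adjusted p = 0.36) were not called, although in both the 3 sixth-day *fog-2(lf)* libraries were above all 3 of the other group. Fitted on the libraries of each comparison alone, both were called (adjusted p = 0.0098 and 0.01). Without first-day wild type replicate 2 they were called too (adjusted p = 0.035 and 0.054). With limma on log2(TPM + 0.5) the increase was called (0.51, adjusted p = 0.098).

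The fall of these 4 genes with age in wild type depended on the test and the scaling. With limma on log2(TPM + 0.5) none of the 4 was called, the log2 differences on that scale being −0.44 for *fat-1*, −0.29 for *fat-2*, −0.60 for *fat-3* and −0.42 for *fat-4* (adjusted p = 0.14, 0.46, 0.21 and 0.11), and with library totals alone *fat-2* was not called (−0.53, adjusted p = 0.13). The TPM given to limma were not TMM-scaled. Their median age difference over all genes in wild type was 0.37, against −0.0031 in the TMM fit. Replicate 2 of first-day wild type was the lowest of its group for each of the 4, and without it the log2 fold changes with age in wild type were −1.25, −1.32, −1.70 and −1.29 for *fat-1*, *fat-2*, *fat-3* and *fat-4*, all called. Without first-day wild type replicate 3, the highest for each, *fat-2* differed with age in wild type by −0.62 and remained called at an adjusted p of 0.099. Fitted on the 6 first-day libraries alone, none of *fat-1* to *fat-5* was called between genotypes on the first day, at adjusted p from 0.11 to 0.16 with log2 fold changes of −0.96, −1.29, −1.66, −1.03 and 2.19 for *fat-1* to *fat-5*. With those same libraries the summed intestinal markers were also highest in first-day wild type (488 to 555 TPM, against at most 345 elsewhere), but their part in the result was not tested. In sixth-day *fog-2(lf)*, where the 4 genes stood above first-day *fog-2(lf)* in every library, the same markers were at 143 to 173 TPM against 258 to 345 TPM in first-day *fog-2(lf)*. Per length, sixth-day *fog-2(lf)* had 3.29 to 3.49 times as much *fat-2* as *fat-6* transcript, against 1.21 to 1.96 times in the other 9 libraries. The *fat-2* sum includes a 472-base isoform, W02A2.1b.1, whose estimated share was 32.3 to 43.9% in sixth-day *fog-2(lf)* and 2.21 to 26.7% in the other 9 libraries. The part of this isoform in the ratio was not tested.

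**Figure D3:**
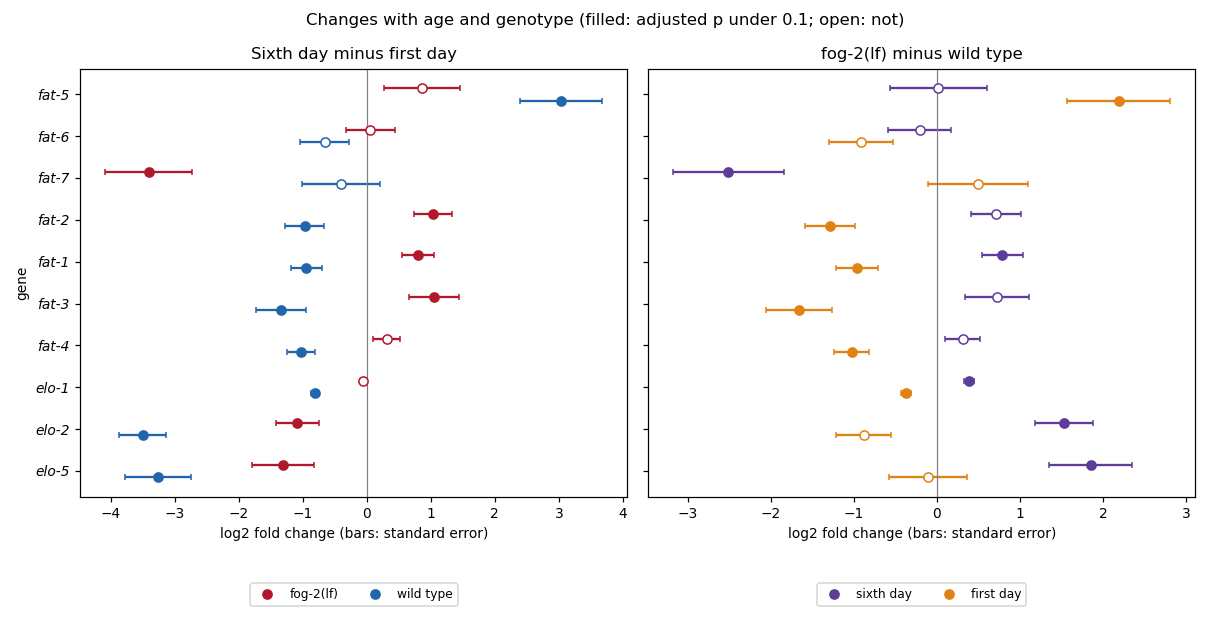
Log2 fold changes of the 10 genes with their standard errors, sixth day minus first day in *fog-2(lf)* and wild type (left) and *fog-2(lf)* minus wild type on the sixth and first day (right), with filled points for an adjusted p under 0.1. *fat-1*, *fat-2* and *fat-3* are filled on opposite sides of 0 in the left panel, at 0.80, 1.03 and 1.05 in *fog-2(lf)* and at −0.94, −0.97 and −1.34 in wild type.

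*elo-1*, an elongase of polyunsaturated chains, had tight replicates in all 4 conditions and the smallest called changes of the 10 genes. It was at 207, 211 and 194 CPM in sixth-day *fog-2(lf)*, 215, 207 and 213 in first-day *fog-2(lf)*, 155, 153 and 161 in sixth-day wild type and 287, 268 and 268 in first-day wild type. In CPM, the *fog-2(lf)* libraries of both ages thus lay between the 2 wild-type ages without touching either. In TPM, sixth-day wild type (173.0 to 193.4) overlapped sixth-day *fog-2(lf)* (191.7 to 207.7) and first-day *fog-2(lf)* (185.9 to 198.5). *elo-1* fell with age in wild type by 0.81 (SE 0.06, adjusted p = 8e-06), and *fog-2(lf)* was lower than wild type on the first day (−0.38, SE 0.06, adjusted p = 0.0061) and higher on the sixth (0.38, SE 0.06, adjusted p = 0.0063). With age in *fog-2(lf)* the difference was −0.05 (SE 0.06, adjusted p = 0.54), which turned to 0.08 with library totals and to 0.05 with limma on log2(TPM + 0.5), and the interaction was 0.76 (SE 0.08, adjusted p = 0.0058). On the sixth day the call was lost with limma on log2(TPM + 0.5), where the difference was 0.14 (adjusted p = 0.18).

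*elo-2*, an elongase that also acts on palmitic acid, fell with age in both genotypes, and further in wild type. It was at 28, 41.9 and 24.0 CPM in sixth-day *fog-2(lf)* against 92.1, 35.6 and 71.4 in first-day *fog-2(lf)*, and at 7.51, 11.8 and 13.2 in sixth-day wild type against 143, 92.2 and 132 in first-day wild type. In *fog-2(lf)* the ages overlapped through replicate 2 on either day, and in wild type they were far apart. The log2 fold change was −1.08 with age in *fog-2(lf)* (SE 0.34, adjusted p = 0.03) and −3.50 with age in wild type (SE 0.37, adjusted p = 5.2e-05). The interaction was 2.42 (SE 0.48, adjusted p = 0.022). *elo-2* was higher in *fog-2(lf)* on the sixth day (1.53, SE 0.35, adjusted p = 0.02) and was not called on the first day (−0.88, SE 0.33, adjusted p = 0.11), where the 3 *fog-2(lf)* libraries were nonetheless all below the 3 of wild type. That first-day difference was called with DESeq2 (adjusted p = 0.047) and without first-day wild type replicate 2 (−1.05, adjusted p = 0.063) or first-day *fog-2(lf)* replicate 1 (−1.19, adjusted p = 0.081). The fall in *fog-2(lf)* was not called without replicate 3 of its sixth day (−0.92, adjusted p = 0.12) or replicate 1 of its first day (−0.77, adjusted p = 0.14).

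*elo-5*, the elongase of iso-branched chains, had a profile near that of *elo-2*. Its CPM were 42.4, 42.8 and 27.6 in sixth-day *fog-2(lf)* against 109, 29.9 and 140 in first-day *fog-2(lf)*, and 5.38, 14.9 and 11 in sixth-day wild type against 122, 76.0 and 102 in first-day wild type. Replicate 2 of first-day *fog-2(lf)* was as low as the sixth-day libraries of that genotype, for *elo-5* as for *elo-2*. *elo-5* fell with age in wild type (−3.26, SE 0.52, adjusted p = 0.00066) and in *fog-2(lf)* (−1.31, SE 0.48, adjusted p = 0.06), was higher in *fog-2(lf)* on the sixth day (1.85, SE 0.50, adjusted p = 0.036), and overlapped on the first day (−0.11, SE 0.47, adjusted p = 0.91). The interaction was at the edge of the call (1.96, SE 0.68, adjusted p = 0.098) and was lost without any of 9 of the 12 libraries, the exceptions being first-day *fog-2(lf)* replicates 2 and 3 and first-day wild type replicate 2, with values from 1.64 to 2.30 and adjusted p from 0.11 to 0.18, and with library totals (1.68, adjusted p = 0.11). The fall in *fog-2(lf)* was likewise lost without any of 5 libraries, those of *fog-2(lf)* other than replicate 2 of its first day (−1.41 to −0.89, adjusted p from 0.11 to 0.24), and with limma on log2(TPM + 0.5) (adjusted p = 0.16). The sixth-day genotype call was lost without sixth-day *fog-2(lf)* replicate 1 or 2 (1.76 and 1.75) or sixth-day wild type replicate 1 (1.54), at adjusted p from 0.1 to 0.12.

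Of the 10 genes, 8 lie on chromosome IV and *fat-5* and *fat-7* on chromosome V (WBcel235). *fat-1* (WBGene00001393, 13315644 to 13318811) and *fat-2* (WBGene00001394, 13323873 to 13326395) are both on the plus strand, 5061 bases apart. *fat-4* (WBGene00001396, 9799429 to 9802226) and *fat-3* (WBGene00001395, 9803023 to 9806119) are also both on the plus strand, with 796 bases between them. *fat-6* (WBGene00001398) spans 11913692 to 11915687 on the minus strand. *elo-1* (WBGene00001239, 9526366 to 9528336, plus strand) lies 1610 bases from *elo-7*, *elo-2* (WBGene00001240) spans 17466062 to 17467408 on the minus strand, and *elo-5* (WBGene00001243, 5374616 to 5377117, minus strand) lies 9511 bases from *elo-6*. On chromosome V, *fat-7* (WBGene00001399) spans 7151353 to 7153146 on the minus strand. *fat-5* (WBGene00001397, 17725004 to 17726818, plus strand) overlaps the end of the channel gene *twk-42* on the other strand, and *elo-5* overlaps F41H10.3 on the other strand. The library kit as named does not mark strand, so reads from such a pair cannot be told apart within the overlap. The *fat-5* transcript quantified in the files has 2335 bases, more than the 1815 that this annotation gives the gene, so its counts and TPM rest on a longer model, and the overlap of that model was not examined.

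In the isoform files, *fat-1*, *fat-5*, *fat-7* and *elo-2* have 1 transcript each, and *fat-6* was almost entirely 1 of its 6 isoforms, VZK822L.1a.1 (1168 bases, 99.1 to 99.7% of its TPM). *fat-2* has a long isoform, W02A2.1a (1269 bases), and a short one, W02A2.1b.1 (472 bases). The short isoform held 32.3 to 43.9% of *fat-2* TPM in sixth-day *fog-2(lf)*, 11.9 to 26.7% in first-day *fog-2(lf)*, 14.03 to 24.3% in sixth-day wild type and 2.21 to 14.6% in first-day wild type. Sixth-day *fog-2(lf)* was thus above the other 3 conditions, whose ranges met or overlapped. In TPM, the long isoform averaged 727 in sixth-day *fog-2(lf)* against 368 in first-day *fog-2(lf)*, and 556 in sixth-day wild type against 835 in first-day wild type, and the short isoform 422 against 78.6 and 133 against 104. The means of the long isoform therefore showed the order of the summed gene in both genotypes, and the short one had the higher mean TPM on the sixth day in both. In wild type the ages overlapped for both isoforms, the short one at 96.6 to 189 TPM on the sixth day against 9.29 to 202 on the first. These TPM are not TMM-scaled, so the order of the short isoform in wild type is uncertain. *fat-3* was mainly W08D2.4a (1491 bases) and the 400-base W08D2.4c, which held 49.95 to 55.9% of its TPM in sixth-day *fog-2(lf)* and 34.7 to 46.8% in the other 9 libraries. *fat-4* was mainly T13F2.1a.1 (1545 bases) and T13F2.1c.3 (615 bases), whose share was 43.3 to 51.4% in sixth-day *fog-2(lf)*, 32.9 to 41.7% in first-day *fog-2(lf)*, 40.8 to 48.3% in sixth-day wild type and 35.0 to 36.0% in first-day wild type. These divisions rest on short single-end reads shared between isoforms, and no test was made on them.

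As a description over the 12 libraries, which share conditions and are not independent points, each gene's log2 CPM was correlated with those of 7388 genes. *fat-1* and *fat-2* were nearest to each other among the 10 (Pearson r = 0.968), and outside the 10 both were nearest to ZK1320.2 (r = 0.924 and 0.962). *fat-3* was nearest to W07G4.5 (r = 0.937), with *fat-2* as near among the 10 (0.937), *fat-4* to *ule-3* (r = 0.955) and *fat-6* to *hda-5* (r = 0.963). *elo-2* and *elo-5* were each other's nearest among the 10 (r = 0.957), with F28H7.3 (r = 0.976) and *elo-6* (r = 0.958) nearest outside, and *elo-1* was nearest to *nspg-14* (r = 0.962) and, among the 10, to *elo-2* (0.946). *fat-5* was like none of the others, its highest r with any of them being −0.025 with *fat-6* and its lowest −0.725 with *elo-1*, and its nearest gene was Y82E9BR.17 (r = 0.940). *fat-7* was nearest to *anmt-3* (r = 0.934) and reached at most 0.351 within the 10, with *elo-2*.

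Genes that feed, assist or use these enzymes were described as 5 lists, to be read against all tested genes, of which 18.0% rose and 21.1% fell with age in *fog-2(lf)* and 23.4% rose and 25.4% fell in wild type. Among 8 tested genes of the elongation cycle and other elongases, 0 rose and 5 fell with age in *fog-2(lf)* (median −0.55), and 2 rose and 5 fell in wild type (median −1.13). The 5 in *fog-2(lf)* became 3 with no low-count filter, with limma on TPM, at an adjusted p under 0.05, and without sixth-day *fog-2(lf)* replicate 2 or 3, first-day *fog-2(lf)* replicate 1 or 3 or sixth-day wild type replicate 3. *elo-6*, which makes iso-branched chains with *elo-5*, fell in wild type (26.9 ± 4.66 CPM on the sixth day against 176 ± 86.3 on the first, −2.71, SE 0.55, adjusted p = 0.0025) and in *fog-2(lf)* (99.3 ± 32.4 against 231 ± 144 CPM, −1.22, SE 0.52, adjusted p = 0.096, SD, n = 3 each). That call in *fog-2(lf)* was lost without any of 9 of the 12 libraries, all but first-day *fog-2(lf)* replicate 2 and first-day wild type replicates 1 and 2 (−1.47 to −0.82, adjusted p from 0.11 to 0.33), and with DESeq2, library totals, no low-count filter or limma on TPM (adjusted p from 0.1 to 0.22). *elo-6* was also higher in *fog-2(lf)* on the sixth day (1.88, SE 0.53, adjusted p = 0.043), as *elo-5* was, and this call was lost without sixth-day *fog-2(lf)* replicate 1 or 2 or any of the 3 sixth-day wild-type libraries (1.64 to 1.98, adjusted p from 0.1 to 0.15). *let-767*, a ketoacyl-CoA reductase, fell in *fog-2(lf)* (134 ± 7.71 against 253 ± 35.7 CPM, −0.92, adjusted p = 0.0001) and in wild type (114 ± 5.72 against 313 ± 12.2 CPM, −1.46, adjusted p = 5.2e-06). *art-1*, an enoyl-CoA reductase of the same cycle, fell by 0.68 in *fog-2(lf)* and by 0.79 in wild type (adjusted p = 0.001 and 0.00029). *hpo-8*, a hydroxyacyl-CoA dehydratase, fell in wild type by 1.63 (58.5 ± 4.08 against 181 ± 45.9 CPM, adjusted p = 4.9e-05) and in *fog-2(lf)* by 0.42 (81.6 ± 6.77 against 109 ± 14.97 CPM, adjusted p = 0.076). The call in *fog-2(lf)* was lost without any of 5 libraries (adjusted p from 0.1 to 0.25) and with library totals, no filter or limma (adjusted p from 0.1 to 0.17). It was also lower in *fog-2(lf)* on the first day (109 ± 14.97 against 181 ± 45.9 CPM, −0.73, adjusted p = 0.023) and had an interaction of 1.21 (adjusted p = 0.02). *elo-9* fell by 1.38 in *fog-2(lf)* and by 2.44 in wild type (adjusted p = 0.0023 and 6.6e-05) at no more than 11.1 CPM in any library. Its interaction (1.06, adjusted p = 0.092) was lost without any of 10 of the 12 libraries.

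The list of branched-chain supply was the only one of the 5 in which every tested gene fell in both genotypes, 6 of 6 (median −0.56 in *fog-2(lf)* and −0.77 in wild type), where 21.1% and 25.4% of all tested genes fell. It holds *elo-6* as well, and with library totals 5 of 6 and 4 of 6 were called, all as decreases. In *fog-2(lf)* the count of 6 needs *elo-6*, whose call was lost under the settings and left-out libraries given above and with the replicate block, and it was then 5 of 6. *acs-1*, an acyl-CoA synthetase of the iso-branched pathway, was at 82.9 ± 14.7 CPM in sixth-day against 219 ± 87.7 in first-day *fog-2(lf)* (−1.40, SE 0.28, adjusted p = 0.0037) and at 35.1 ± 9.22 in sixth-day against 158 ± 30.96 in first-day wild type (−2.17, SE 0.29, adjusted p = 0.00024). It was higher in *fog-2(lf)* on the sixth day (1.24, SE 0.28, adjusted p = 0.021), among 3 of 6 genes that were, where 9.83% of all tested genes were higher. That count was 1 without sixth-day *fog-2(lf)* replicate 1 or 2 or sixth-day wild type replicate 1 or 2, and 5 on the 6 sixth-day libraries alone. *bckd-1B*, a subunit of the branched-chain keto acid dehydrogenase, fell by 0.53 in *fog-2(lf)* and by 0.77 in wild type (adjusted p = 0.0048 and 0.0004). *dld-1*, a subunit of that enzyme and of other complexes, fell in wild type (−0.77, SE 0.10, adjusted p = 0.0002).

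Among 9 tested genes of fatty acid synthesis and electron supply, 1 rose and 3 fell with age in *fog-2(lf)* and 1 rose and 4 fell in wild type. With library totals these were 1 and 1, and 3 and 2. The 4 of 9 called in *fog-2(lf)* and 5 of 9 in wild type stand beside 39.2% and 48.8% of all tested genes. *acly-1*, an ATP-citrate lyase that supplies acetyl-CoA, fell in *fog-2(lf)* by 1.27 (136 ± 18.1 against 328 ± 52.3 CPM, adjusted p = 0.00013) and in wild type by 1.07 (107 ± 2.49 against 225 ± 35.7 CPM, adjusted p = 0.00021). It was higher in *fog-2(lf)* on the first day (328 ± 52.3 against 225 ± 35.7 CPM, 0.55, adjusted p = 0.033), though not without first-day *fog-2(lf)* replicate 3 (0.43, adjusted p = 0.12). *fasn-1*, the fatty acid synthase upstream of the desaturases, rose with age in wild type (234.5 ± 58.7 against 147 ± 57.4 CPM, 0.67, SE 0.26, adjusted p = 0.056) and had an interaction of −1.21 (SE 0.36, adjusted p = 0.064), the opposite signs to *fat-1* to *fat-4*. Its rise was not called without sixth-day wild type replicate 2 or first-day wild type replicate 1 or 3 (0.42 to 0.64, adjusted p from 0.12 to 0.22), nor on the 6 wild-type libraries alone (adjusted p = 0.15). Its interaction was not called without sixth-day *fog-2(lf)* replicate 1 or 3, first-day *fog-2(lf)* replicate 3 or sixth-day wild type replicate 2 (−1.23 to −0.98, adjusted p from 0.1 to 0.15). *cytb-5.1*, a cytochrome b5, fell with age in wild type (47.4 ± 10.02 against 108 ± 36.8 CPM, −1.18, SE 0.24, adjusted p = 0.0027), with an interaction of 1.18 (SE 0.34, adjusted p = 0.054) that was lost without sixth-day *fog-2(lf)* replicate 1 or 2, first-day *fog-2(lf)* replicate 1, sixth-day wild type replicate 2 or 3 or first-day wild type replicate 1 (1.04 to 1.20, adjusted p from 0.1 to 0.13). *cytb-5.2*, another cytochrome b5, rose with age in *fog-2(lf)* (72.5 ± 0.902 against 53.9 ± 3.15 CPM, 0.43, SE 0.12, adjusted p = 0.016). *mlcd-1*, a malonyl-CoA decarboxylase, fell in *fog-2(lf)* by 0.28 and in wild type by 0.53 (adjusted p = 0.014 and 0.00029). Neither fall was called with library totals (adjusted p = 0.19 and 0.28). On the sixth day *hpo-19*, a gene of this list, was higher in *fog-2(lf)* (166 ± 8.93 against 134 ± 2.41 CPM, 0.31, adjusted p = 0.022), but not with library totals (0.16, adjusted p = 0.23). Fitted on the 6 first-day libraries alone, *acly-1* and *hpo-8* were not called between genotypes (adjusted p = 0.13 and 0.11).

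Of 15 tested regulators of the desaturases, 1 rose and 3 fell with age in *fog-2(lf)* (median −0.04) and 1 rose and 7 fell in wild type (median −0.16). The 4 of 15 called in *fog-2(lf)* and 8 of 15 in wild type stand beside 39.2% and 48.8% of all tested genes. This direction depended on the scaling, since with library totals 3 rose and 2 fell in *fog-2(lf)* and 8 rose and 2 fell in wild type. *nhr-80*, a nuclear hormone receptor that activates delta-9 desaturase genes, fell in *fog-2(lf)* (6.39 ± 0.456 against 12.3 ± 1.27 CPM, −0.94, SE 0.26, adjusted p = 0.017) and in wild type (5.18 ± 1.09 against 14.7 ± 6.05 CPM, −1.50, SE 0.26, adjusted p = 0.0011). *nhr-49*, another such receptor, rose in *fog-2(lf)* (130 ± 9.66 against 98.4 ± 1.72 CPM, 0.40, SE 0.07, adjusted p = 0.0021) and in wild type (127 ± 8.76 against 101 ± 4.51 CPM, 0.32, SE 0.07, adjusted p = 0.0052), with an interaction of 0.08 (adjusted p = 0.65). *aak-2*, a catalytic subunit of AMP-activated protein kinase, fell by 0.65 in *fog-2(lf)* and by 0.48 in wild type (adjusted p = 0.0012 and 0.0045). *nhr-13*, a further receptor, was higher in *fog-2(lf)* on the sixth day (19.3 ± 1.61 against 13.2 ± 1.23 CPM, 0.55, SE 0.13, adjusted p = 0.024). With limma on TPM it was not called (adjusted p from 0.14 to 0.15). *nhr-64* was lower in *fog-2(lf)* on the first day (6.60 ± 0.117 against 14.3 ± 4.63 CPM, −1.12, SE 0.21, adjusted p = 0.01) and fell with age in wild type by 1.05 (adjusted p = 0.002). *paqr-1*, a worm relative of adiponectin receptors, was the only regulator with a called interaction (0.51, SE 0.11, adjusted p = 0.025), at 113 ± 3.90 CPM in sixth-day and 114 ± 7.16 in first-day *fog-2(lf)* and 108 ± 8.61 in sixth-day and 156 ± 8.96 in first-day wild type. With library totals that interaction was 0.23 and not called (adjusted p = 0.19).

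The list of 17 genes for lipid storage and phospholipid synthesis also holds *sams-1* and lipases such as *lipl-1*, which break lipids down. Of these 17 genes, 0 rose and 8 fell with age in *fog-2(lf)* (median −0.25) and 1 rose and 12 fell in wild type (median −0.52). With library totals 2 rose and 7 fell, and 4 rose and 8 fell. In the TMM fit, 18.0% of all tested genes rose and 21.1% fell in *fog-2(lf)*, and 23.4% rose and 25.4% fell in wild type. The largest interaction on the 5 lists was that of *lipl-1*, a lysosomal lipase, at 5.98 (SE 1.36, adjusted p = 0.031). It was at 18.9, 26.2 and 8.94 CPM in sixth-day *fog-2(lf)* against 2.42, 4.85 and 4.90 in first-day *fog-2(lf)*, and at 1.51, 7.73 and 1.22 in sixth-day wild type against 30.2, 5.83 and 113 in first-day wild type. It fell with age in wild type (−3.83, SE 1.00, adjusted p = 0.01). Without first-day wild type replicate 3 this was −2.37. In *fog-2(lf)* the age difference was 2.15 (SE 0.94, adjusted p = 0.1) and not called, although the ages did not overlap. On the first day it was lower in *fog-2(lf)* (−3.61, SE 0.98, adjusted p = 0.041). That call was lost without any *fog-2(lf)* library of that day, without first-day wild type replicate 3 (−2.16) or on the 6 first-day libraries alone, at adjusted p from 0.1 to 0.13. *pmt-2*, a phosphoethanolamine methyltransferase of phosphatidylcholine synthesis, was at 64.4 ± 9.54 CPM in sixth-day against 278 ± 103 in first-day *fog-2(lf)* (−2.11, SE 0.26, adjusted p = 0.00021) and at 32.6 ± 4.70 in sixth-day against 382 ± 64.7 in first-day wild type (−3.55, SE 0.27, adjusted p = 9.5e-06). *sams-1*, a S-adenosylmethionine synthetase, fell by 2.93 in *fog-2(lf)* and by 2.76 in wild type (adjusted p = 0.0018 and 0.0016), and by 2.29 in *fog-2(lf)* without replicate 1 of its first day. *pmt-1*, the companion of *pmt-2*, had an interaction of 1.73 (SE 0.41, adjusted p = 0.033), in the same direction as *fat-1* to *fat-4*. On the first day, *dgat-2*, a diacylglycerol acyltransferase, was higher in *fog-2(lf)* (28.6 ± 10.7 against 9.14 ± 2.41 CPM, 1.65, SE 0.32, adjusted p = 0.013) and *cept-1*, a phosphotransferase of phospholipid synthesis, was lower (9.98 ± 3.46 against 28.4 ± 6.76 CPM, −1.51, SE 0.30, adjusted p = 0.014).

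**Figure D4:**
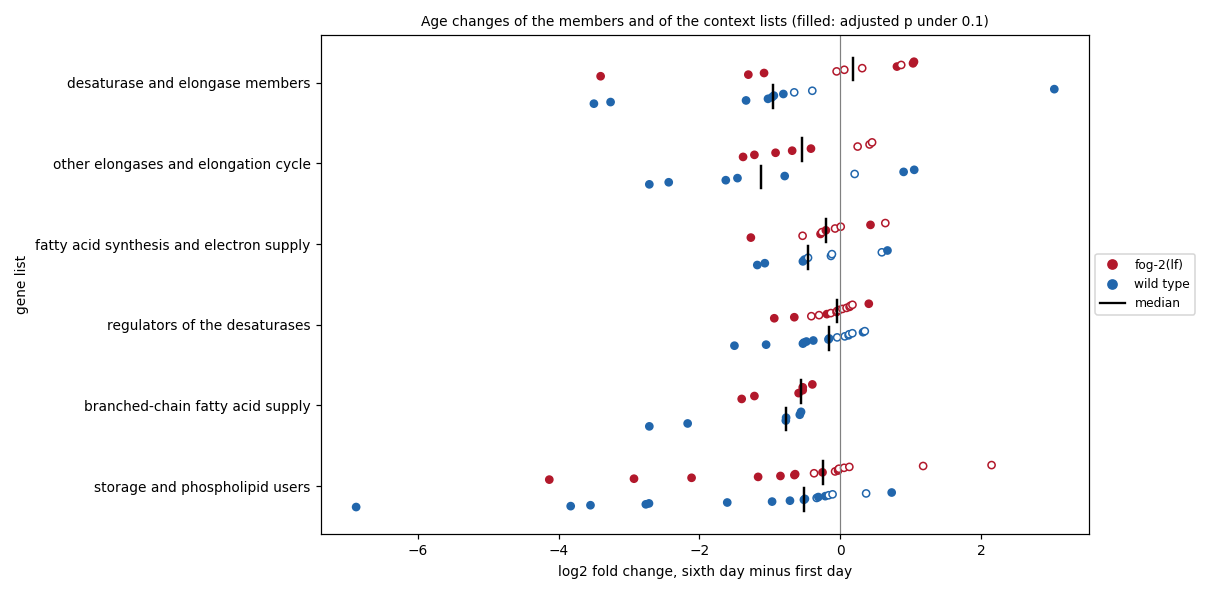
Log2 fold change with age, sixth day minus first day, of the 10 desaturase and elongase genes and of the 5 lists, with 1 point per gene, *fog-2(lf)* above wild type within each list, filled points for an adjusted p under 0.1 and a bar at the median. All 6 branched-chain supply genes are filled and below 0 in both genotypes, while the 10 desaturase and elongase genes lie on both sides of 0 with medians of 0.18 in *fog-2(lf)* and −0.96 in wild type. The point farthest to the left belongs to *lipl-3*, a lysosomal lipase at no more than 0.311 CPM in any sixth-day library, whose fold change is not given because it rests on few counts.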

How the data were processed

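RNA-seq was made from polyA RNA of whole adults, with 3 biological replicates in each of 4 conditions. The authors ran kallisto in single-end mode, and the deposited estimated counts are reads per isoform as it assigned them, unscaled. The deposited TPM come from the same kallisto runs, after division by effective length. Per the labels, kallisto and sleuth were used with WBcel235, with versions not given in the sources used here. The library kit is not one that marks strand, and the labels give no batch or date.

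Isoforms were matched to genes by sequence name, 307 of 32905 without a match, and estimated counts were rounded and summed per gene. Low genes were removed with edgeR's filterByExpr, libraries were TMM-scaled, and edgeR's quasi-likelihood model (version 4.0.16, R 4.3.3) was fitted to all 12 with age, genotype and their interaction. Adjustment was by Benjamini-Hochberg over 14576 genes, with calls at an adjusted p under 0.1. A standard error is the log2 fold change over the root of F. Each p-value of the main fit sets a difference against the spread between samples, estimated over all 12 libraries together and not for each group. The alternatives were DESeq2 (1.42.0), RLE factors, library totals, no low-count filter, limma (3.58.1) on log2(TPM + 0.5) with offsets 0.1 and 1, an adjusted p under 0.05, a fit to one comparison's own libraries, a block for the replicate number, and each library left out.

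The 10 genes, the 5 lists and the tissue markers were chosen with earlier results of these data known. All 10 were named whatever their values, and genes of the lists were taken from up to 4 per list and comparison, those called with the largest changes. A gene so named is also given in other comparisons, and not every such gene is described. *lipl-3* is named as a point of a plot. Of the lists, *elo-7*, T05H4.5 and *lpd-1* were not tested here.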

Additional observations from a re-analysis of the deposited data

Results flagged for a closer look

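The age difference itself depended on genotype for 8 of the 10 genes, by the interaction term of edgeR's quasi-likelihood fit at an adjusted p under 0.1. The age difference in *fog-2(lf)* minus that in wild type was 1.75 for *fat-1*, 2.002 for *fat-2*, 2.38 for *fat-3* and 1.34 for *fat-4* on the log2 scale. For the first 3 of these it joined a called increase in *fog-2(lf)* to a called decrease in wild type, and for *fat-4* a called decrease in wild type only. It was 0.76 for *elo-1*, 2.42 for *elo-2* and 1.96 for *elo-5*, whose decrease with age was called in wild type and, for *elo-2* and *elo-5*, also in *fog-2(lf)*. It was −3.01 for *fat-7*, the only called term of the opposite sign, with a called decrease in *fog-2(lf)* alone. The terms of *fat-7* and *elo-5* were the least certain of the 8, at adjusted p of 0.063 and 0.098.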

How the results depend on the processing

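Replicate numbers showed no clear pairing of the samples, as 3 of 18 same-numbered pairs had a correlation of deviations over 0.1 (−0.118 to 0.148). Pairs with different numbers ran from −0.162 to 0.117. With 3 libraries per group, this check cannot exclude a pairing. With the number as a block, 8 genes were called with age in wild type, 5 with age in *fog-2(lf)*, 6 and 5 for genotype on the first and sixth day and 6 for the interaction, without *elo-5* with age in *fog-2(lf)* (−1.23) and *fat-7* (−2.58) and *elo-5* (1.99) in the interaction. Leaving out 1 library gave 8 to 10, 3 to 8, 4 to 8, 2 to 8 and 6 to 10 genes called in these comparisons. With age in *fog-2(lf)*, 3 were called without replicate 1 or 3 of either *fog-2(lf)* day and 8 without first-day wild type replicate 2. Without that library 8, 8 and 10 were called for genotype on each day and the interaction. For genotype, 4 were called on the first day without first-day *fog-2(lf)* replicate 3, and on the sixth day 2 without replicate 1 of either sixth-day group and 3 without sixth-day *fog-2(lf)* replicate 2. Limma on log2(TPM + 0.5), or with 0.1 or 1, called 4 with age in wild type and 3 for genotype on the sixth day. Fits on the libraries of a comparison alone called 1 for genotype on the first day and 8 on the sixth. At an adjusted p under 0.05, 4 were called with age in *fog-2(lf)*. The cause was not tested.

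The values that changed sign were all uncalled. *fat-7* with age in wild type was 0.031 with library totals and −1.64 to 0.032 with 1 library left out. *fat-6* with age in *fog-2(lf)* was −0.016 to 0.13 with 1 library left out. *elo-1* with age in *fog-2(lf)* was 0.080 with library totals and 0.0490, 0.0491 and 0.0489 with limma at offsets of 0.5, 0.1 and 1. *elo-5* for genotype on the first day was 0.032 with library totals and −0.52 to 0.32 with 1 library left out. For genotype on the sixth day *fat-5* was −0.13 with library totals and limma, and −0.20 to 0.48 with 1 library left out, where *fat-6* was −0.42 to 0.15.

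From CPM in place of TPM, the delta-9 share of *fat-5* averaged 34.2, 22.3, 30.4 and 2.86% in sixth- and first-day *fog-2(lf)* and sixth- and first-day wild type, that of *fat-6* 65.6, 75.3, 68.7 and 95.4%, and that of *fat-7* in sixth-day *fog-2(lf)* 0.194%, as CPM are not divided by length. *fat-6* and *fat-7* as 1 sum held 88.8% in first-day *fog-2(lf)* and 98.7% in first-day wild type. The fit on all 12 libraries lets groups share 1 spread, so a group of 2 is assumed to vary like the others.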
